A study of Mus musculus with 12 samples.

Results

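The transcripts described here are those of the cytosolic ribosomal proteins, the proteins that, together with ribosomal RNA, make up the ribosome outside the mitochondria. Members were all mouse genes on the array whose symbol starts with Rpl or Rps and a digit, or is Rplp0, Rplp1, Rplp2 or Rpsa, with the kinases named Rps6k left out. The name rule found 65 genes of 19057 with a named probe, and 59 of the 65 had at least 1 probe above background (on 1 or more arrays, by a detection p-value under 0.01), among 11244 genes that met this filter. RNA came from hearts and kidneys of C57BL/6 mice 12 months of age and was hybridised to 12 Illumina bead arrays, 3 in each of 4 groups. The groups were PAI-1 knockout hearts (KO/HT), wildtype hearts (WT/HT), PAI-1 knockout kidneys (KO/KID) and wildtype kidneys (WT/KID). PAI-1, plasminogen activator inhibitor-1, restrains the breakdown of fibrin and matrix. The deletion is global, so that every cell lacks the coding sequence and some of its promoter, and the study used these mice because fibrosis develops with age in their hearts and not in their kidneys. The transcript of the deleted gene is not analysed here.

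Each ribosomal protein is placed on the large or the small subunit, and most are present in a single copy per ribosome, so cells keep their synthesis balanced. Their mRNAs belong to the class with a terminal oligopyrimidine (TOP) tract, an unbroken stretch of C and T at the very start of the transcript. Through this tract the kinase mTOR and the binding protein Larp1 set how strongly these mRNAs are translated. A few subunits have a paralog that replaces the usual copy in certain tissues. In the mouse Rpl3l, a copy of Rpl3, is known from heart and skeletal muscle.

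Of the 59 measured members, 30 are subunits of the large and 21 of the small ribosomal subunit. A further 6 are paralogs of a subunit gene (Rpl3l, Rpl22l1, Rpl7l1, Rpl36al, Rps27l and Rps4l), 1 is a retrogene (Rps23rg1), and 1, Rps19bp1, was taken in by its name but encodes a partner of a ribosomal protein and not a subunit. The 6 genes with no probe above background were Rpl14, Rpl17, Rpl39l, Rpl6, Rps20 and Rps23. All of these except Rpl39l are parts of every ribosome, so an undetected probe here says nothing of the gene. In all 12 arrays 55 of the 59 were detected, and 43 had a probe in the top 5% of kept probes by mean signal. Ribosomal protein genes have many processed copies elsewhere in the genome, and which of them a probe also reads was not tested.

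The start of the gene is shown for members on which the comparisons below turn, since a TOP tract would lie there. Each line gives the 15 bases before and the 15 bases after the outermost start that RefSeq annotates for the gene in GRCm38.p6, on the strand of the transcript, with the longest run of C and T in capitals.
Rpl3l (chr17:24727811-24727840, + strand): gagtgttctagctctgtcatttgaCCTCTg
Rpl12 (chr2:32961697-32961726, + strand): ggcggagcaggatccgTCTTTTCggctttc
Rpl24 (chr16:55966260-55966289, + strand): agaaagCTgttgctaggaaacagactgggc
Rps7 (chr12:28635939-28635968, - strand): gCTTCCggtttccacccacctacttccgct
Rpl23 (chr11:97782425-97782454, - strand): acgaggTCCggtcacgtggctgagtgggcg
Rps26 (chr10:128626492-128626521, - strand): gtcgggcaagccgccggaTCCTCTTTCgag
Rpl41 (chr10:128549154-128549183, - strand): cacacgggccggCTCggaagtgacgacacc

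The longest run was 9 bases in Rps26, 7 in Rpl12, 5 in Rpl3l and Rps7, 3 in Rpl23 and Rpl41 and 2 in Rpl24. These windows depend on where the annotation puts the start, and the start used in the cells was not measured. The entries of Rpl7a and Rpl38 lie 122 and 762 bases inside the gene and are not shown. Of the 59 members, 50 had an entry in the promoter table, and 43 had one within 5 bases of the outermost start of the gene. Of these 43, 21 (48.8%) held a run of at least 6 bases of C and T within the 30-base window, against 29.6% of the 20051 genes with such an entry. In the stretch of 250 bases before and 50 bases after that start, CTTCCG or its reverse complement, the core letters bound by ETS factors, was present in 67.4% of members and in 14.5% of all genes. AAGATGG or its reverse complement, letters bound by YY1, was present in 16.3% of members and 6.64% of all genes. TATAAA on either strand was present in 11.6% of members and 16.2% of all genes. None of these motifs holds another, although the 5 bases CTTCC can be part of a longer run of C and T. A match is a description of the letters and was not tested as a site.

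Before the comparisons, 3 features of the arrays bear on them. Arrays of a group correlated at r = 0.986 to 0.996 across kept probes, the lowest values being those of KO/HT, and 14281 to 16080 probes were detected per array, with 14281 to 15292 in hearts and 15070 to 16080 in kidneys. All 6 measured cardiomyocyte markers (such as Myh6 and Tnni3) were detected in every heart group and in no kidney group. Their mean was 13.2 to 13.4 log2 units in KO/HT and 13.3 to 13.4 in WT/HT, against 6.48 to 6.50 in KO/KID and 6.47 to 6.49 in WT/KID. The 6 proximal tubule markers averaged 6.56 to 6.88 in KO/HT and 6.47 to 6.94 in WT/HT, against 14.17 to 14.19 in KO/KID and 14.15 to 14.18 in WT/KID. Xist, the RNA of the inactive X chromosome in females, was detected in KO/HT replicates 2 and 3 and in all 3 WT/HT arrays. The Y-linked transcript Eif2s3y was detected in KO/HT replicate 1 and in all 6 kidney arrays. Among wildtype arrays, organ and sex therefore cannot be told apart, and no wildtype heart came from the same animal as a wildtype kidney. KO/HT replicates 2 and 3 likewise came from other animals than the KO/KID arrays, so organ and sex are largely tied in KO as well. Hearts of the genotypes are not matched for sex, since KO/HT replicate 1 has no WT/HT array of its sex.

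The comparison of hearts with kidneys was made within each genotype. In knockout mice 26 of the 59 members were higher in KO/HT than in KO/KID (44.1%, beside 35.4% of all 11244 genes) and 12 were lower (20.3%, beside 33% of all genes). These calls used limma's moderated test with Benjamini-Hochberg adjusted p under 0.05 over all 19780 kept probes. In wildtype mice 23 members were higher in WT/HT than in WT/KID (39%, beside 36.1%) and 17 were lower (28.8%, beside 33.9%). By the brightest probe of each gene, the shares in WT lay near those of all genes. The median difference of the members was 0.16 on the log2 scale in KO and 0.05 in WT, against 0.02 and 0.01 for all genes. With the mean of a gene's probes it was 0.184 in KO and 0.192 in WT, against 0.0252 and 0.0203 for all genes. The 2 comparisons share no array, but they share the fit, its estimate of the spread, the normalization and the choice of probe. They called 21 members higher in hearts in both genotypes and 11 lower in both, none with opposite signs. In KO only 6 members passed, in WT only 8, and in neither 13. This overlap was not counted over all genes, of which a large share was called in each comparison. It is therefore not shown to be particular to the members. Without quantile normalization, with array medians aligned instead, 7 members were higher and 15 lower in KO and 14 higher and 19 lower in WT, and the median of the members turned to -0.09 in KO and -0.04 in WT. With that scaling the median of all genes moved to -0.20 in KO and -0.12 in WT, so the members' median stayed 0.12 and 0.08 above it. Counting both directions, 7857 of the 11244 genes were then called in KO and 7507 in WT.

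Most differences between the organs were small. In KO 12 members were called higher and 1 lower by more than 0.5 on the log2 scale, beside 20.6% and 19.5% of all genes. In WT these were 14 and 4, beside 21.3% and 20.3%. Beyond 1 log2 unit, 1 was higher and none lower in KO, beside 9.77% and 11.2% of all genes, and 5 were higher and 1 lower in WT, beside 10.4% and 11.5%. The median size of the difference, whatever its sign, was 0.27 in KO and 0.31 in WT for the members, against 0.35 and 0.37 for all genes. Of the large subunit genes, 14 of 30 were higher and 5 lower in KO/HT, and 12 and 8 in WT/HT. Of the small subunit genes, 10 of 21 were higher and 4 lower in KO/HT, and 9 and 6 in WT/HT. These class counts take calls of any size, for which the shares of all genes were 35.4% higher and 33% lower in KO. In WT they were 36.1% and 33.9%. Of the 6 paralogs, Rpl3l and Rps4l were higher in hearts in both genotypes, Rpl7l1, Rpl36al and Rps27l were lower in both, and Rpl22l1 did not pass. The 1 KO/HT array with the Y-linked transcript, replicate 1, was set against the calls of a fit without it. It lay above all 3 KO/KID arrays in 22 of the 23 members that this fit called higher and below them in 9 of the 10 called lower. The exceptions were Rpl7a and Rpl36al, for which it lay within the range of the kidneys. The same count was not made over all genes, so it is not known to be particular to the members. These members were picked for a difference between the organs, and the part of sex was not tested.

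**Figure D1:**
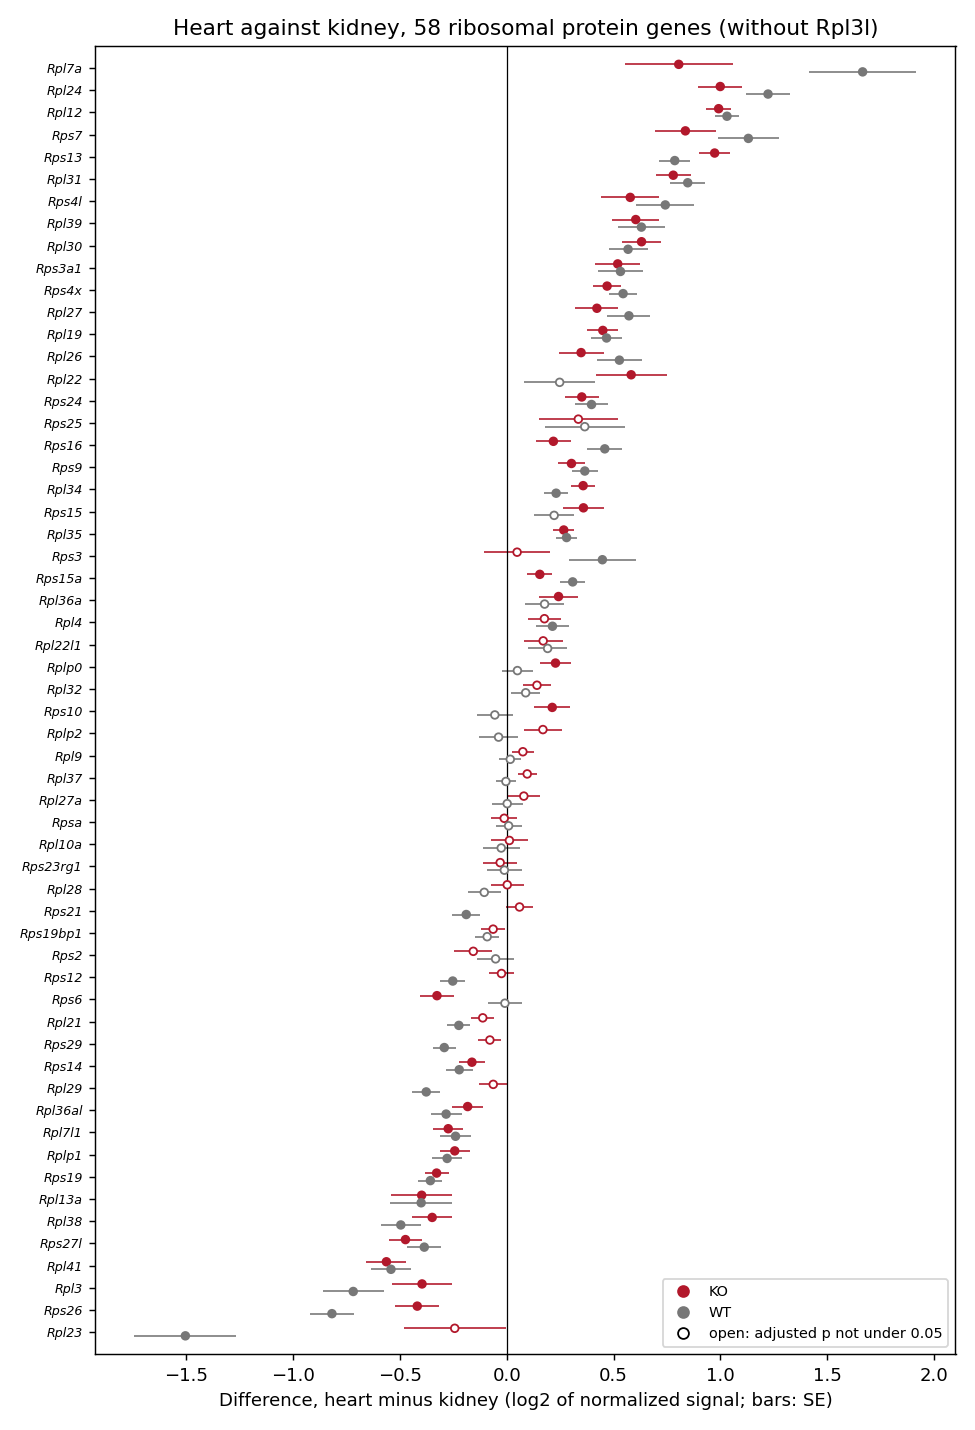
Difference between heart and kidney for 58 members on the log2 scale of normalized signal, in KO (red) above WT (grey) for each gene, with the SE of the fit and open symbols where the adjusted p was not under 0.05. Rpl3l, at 5.03 in KO and 5.18 in WT, lies beyond the axis and was left out. Most genes keep the same side of 0 in both genotypes, with quantile normalization, and Rpl23 shows the widest gap between genotypes on the lower side.

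Rpl3l stood out from the other members. Its log2 signal was 13.14, 13.32 and 12.66 in KO/HT and 7.83, 8.17 and 8.02 in KO/KID. In wildtype mice it was 13.43, 13.35 and 13.33 in WT/HT and 8.34, 8.22 and 8.02 in WT/KID. The hearts lay far above the kidneys on every array. The difference was 5.03 ± 0.14 (SE, n = 3 each) in KO, a 32.7-fold higher signal in hearts, with limma adjusted p = 8.21e-12. In WT it was 5.18 ± 0.14, or 36.2-fold, with adjusted p = 6.15e-12. The probe was detected in all 6 kidneys as well. The next largest heart excess among members was 1.67 log2 units, in Rpl7a.

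Rpl3, the usual copy that Rpl3l can replace at the peptidyl transferase centre of the large subunit, differed the other way. It read 12.34, 12.71 and 13.12 in KO/HT against 13.16, 13.18 and 13.02 in KO/KID. In wildtype mice the readings were 12.35, 12.43 and 12.42 in WT/HT and 13.21, 13.07 and 13.08 in WT/KID. All WT hearts lay below all WT kidneys, while KO/HT replicate 3 reached the level of the kidneys. Rpl3 was lower in hearts, at -0.40 ± 0.14 in KO (adjusted p = 0.0276, 1.32-fold) and at -0.72 ± 0.14 in WT (adjusted p = 0.000682, 1.65-fold). The KO call was lost under several settings, among them a fit of only the 2 groups (adjusted p = 0.0948) and leaving out KO/HT replicate 1 (difference -0.21, adjusted p = 0.108), KO/HT replicate 2, KO/KID replicate 1 or KO/KID replicate 2. KO/HT replicate 3 had at the same time the lowest Rpl3l and the highest Rpl3 of the 6 hearts. The fibroblast markers averaged 9.33 on that array and 8.65 to 8.94 on the other hearts, with Col1a1 at 9.38 against 7.75 to 8.08, and its cardiomyocyte markers averaged 13.2. The part of these in the Rpl3 values was not tested.

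**Figure D2:**
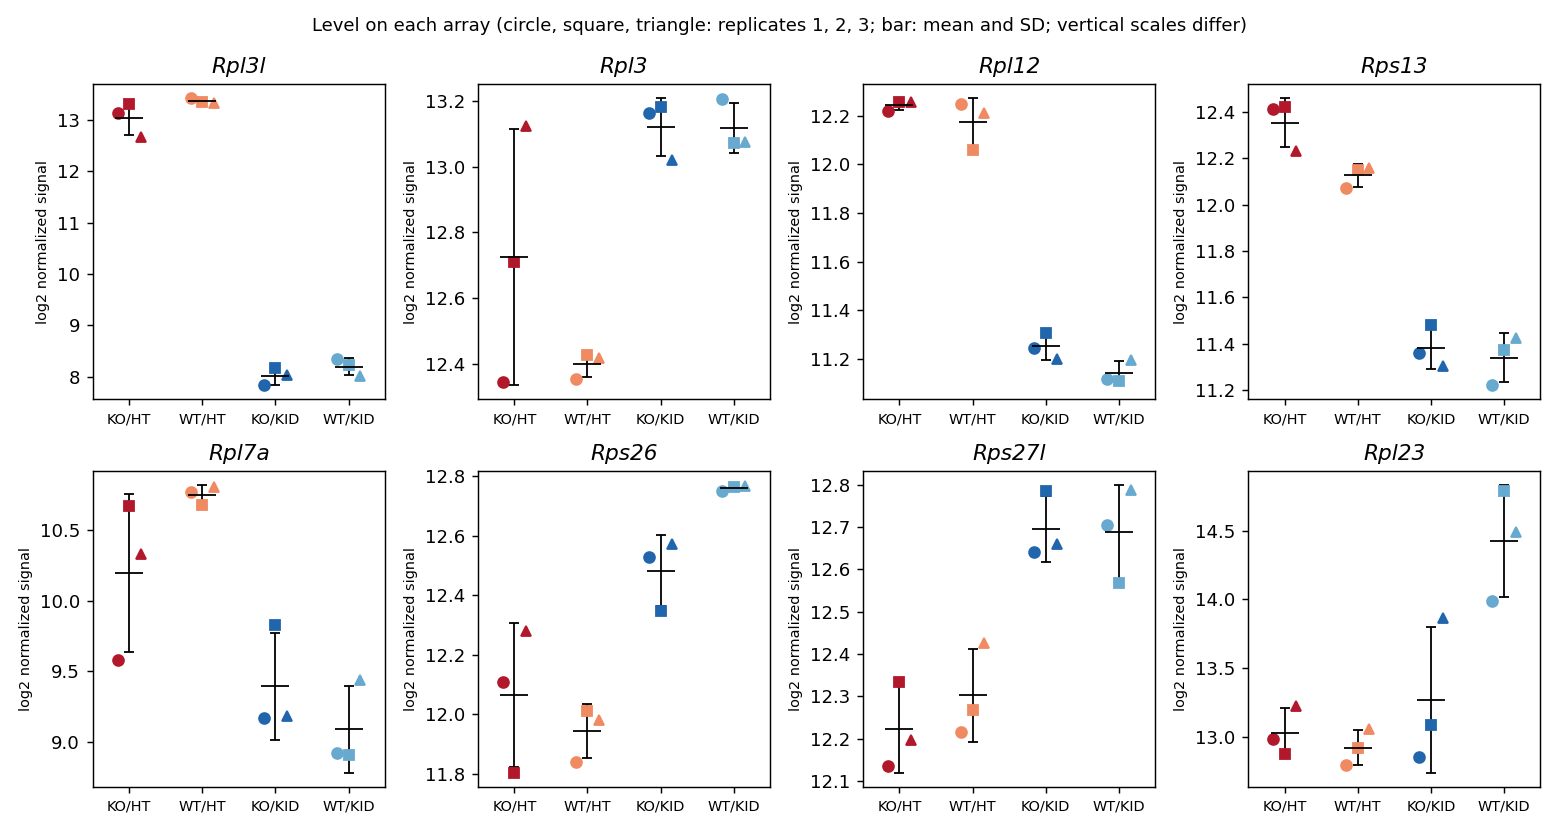
Log2 normalized signal of 8 members on each of the 12 arrays, by group, with mean and SD (n = 3 arrays) as bars and replicates 1, 2 and 3 as circle, square and triangle. Heart and kidney arrays separate fully in Rpl3l, Rpl12, Rps13 and Rps27l, whereas Rpl3 reaches the kidney level in KO/HT replicate 3, Rpl7a lies among the kidneys in KO/HT replicate 1, and Rpl23 is high in WT/KID.

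Among the subunit genes higher in hearts, Rpl12, part of the base of the ribosomal stalk, differed by about the same amount in both genotypes. It read 12.22, 12.26 and 12.26 in KO/HT and 11.25, 11.31 and 11.20 in KO/KID, and in wildtype mice 12.25, 12.06 and 12.21 in WT/HT and 11.12, 11.11 and 11.20 in WT/KID. Every heart lay above every kidney, by 0.99 ± 0.06 in KO (adjusted p = 1.06e-08) and by 1.03 ± 0.06 in WT (adjusted p = 7.06e-09). Rpl24, a large subunit protein near the bridge to the small subunit, read 11.63, 11.71 and 11.51 in KO/HT against 10.47, 10.88 and 10.50 in KO/KID. In wildtype mice Rpl24 read 11.67, 11.77 and 11.66 in WT/HT against 10.36, 10.48 and 10.60 in WT/KID. Again no heart overlapped a kidney, and the differences were 1.00 ± 0.10 in KO (adjusted p = 2.45e-06) and 1.22 ± 0.10 in WT (adjusted p = 3.44e-07).

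Rps7 and Rps13 are proteins of the small subunit. Rps7 read 12.67, 12.61 and 12.55 in KO/HT against 11.54, 12.16 and 11.61 in KO/KID, a difference of 0.84 ± 0.14 (adjusted p = 0.000204). In wildtype mice Rps7 read 12.60, 12.64 and 12.65 in WT/HT against 11.42, 11.34 and 11.73 in WT/KID, a difference of 1.13 ± 0.14 (adjusted p = 1.42e-05). The groups did not overlap, although KO/KID replicate 2 was the nearest to the hearts. Rps13 read 12.41, 12.42 and 12.23 in KO/HT against 11.36, 11.48 and 11.30 in KO/KID, and 12.07, 12.15 and 12.16 in WT/HT against 11.22, 11.37 and 11.42 in WT/KID. Its heart excess was 0.97 ± 0.07 in KO (adjusted p = 1.16e-07) and 0.79 ± 0.07 in WT (adjusted p = 8.64e-07).

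Rpl7a, a large subunit protein, was the most variable member, with a within-group SD of 0.37 log2 units, against a median of 0.10 for the members and 0.10 for all genes. It read 9.58, 10.67 and 10.33 in KO/HT against 9.17, 9.83 and 9.18 in KO/KID. In wildtype mice it read 10.77, 10.68 and 10.81 in WT/HT against 8.92, 8.90 and 9.44 in WT/KID. KO/HT replicate 1 fell among the kidneys, so the KO groups overlapped and the WT groups did not. The difference was 0.81 ± 0.25 in KO (adjusted p = 0.0137) and 1.67 ± 0.25 in WT (adjusted p = 7.51e-05). In KO it did not pass without KO/HT replicate 2, KO/KID replicate 1 or KO/KID replicate 3, nor with array medians aligned. The difference between the genotypes' organ effects, -0.86 ± 0.36, did not pass (adjusted p = 0.521).

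With quantile normalization, fewer subunit genes were called lower than higher in hearts. With array medians aligned the order turned, with 15 members lower and 7 higher in KO and 19 lower and 14 higher in WT. Rps26, a small subunit protein at the mRNA exit channel, read 12.11, 11.80 and 12.28 in KO/HT against 12.53, 12.35 and 12.57 in KO/KID. In wildtype mice Rps26 read 11.84, 12.01 and 11.98 in WT/HT against 12.75, 12.76 and 12.77 in WT/KID. Hearts lay below kidneys on every array, at -0.42 ± 0.10 in KO (adjusted p = 0.00337) and at -0.82 ± 0.10 in WT (adjusted p = 1.57e-05). Rpl41, which encodes a very short peptide of the large subunit, read 13.94, 14.12 and 14.36 in KO/HT against 14.77, 14.64 and 14.70 in KO/KID. In wildtype mice Rpl41 read 13.97, 14.14 and 14.16 in WT/HT against 14.70, 14.56 and 14.64 in WT/KID. Its differences, -0.56 ± 0.09 in KO (adjusted p = 0.000177) and -0.54 ± 0.09 in WT (adjusted p = 0.00023), were nearly equal. Rpl13a, which in human cells also serves in a translational silencing complex outside the ribosome, was at -0.40 ± 0.14 in KO (adjusted p = 0.0281) and at -0.40 ± 0.14 in WT (adjusted p = 0.0263). The KO call of Rpl13a was lost without KO/HT replicate 2 (difference -0.20, adjusted p = 0.109), KO/KID replicate 1 or KO/KID replicate 3, and its WT call without WT/HT replicate 1 or WT/KID replicate 2.

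The paralogs and their partners differed from pair to pair. Rps27l, a copy of Rps27 that is known as a target of p53, read 12.13, 12.33 and 12.20 in KO/HT against 12.64, 12.78 and 12.66 in KO/KID, and 12.21, 12.27 and 12.43 in WT/HT against 12.71, 12.57 and 12.79 in WT/KID. Hearts lay below kidneys without overlap, at -0.47 ± 0.08 in KO (adjusted p = 0.000176) and at -0.39 ± 0.08 in WT (adjusted p = 0.000842). Rps4l, a copy of the X-linked Rps4x, was higher in hearts by 0.58 ± 0.14 in KO and 0.74 ± 0.14 in WT, and Rps4x by 0.47 ± 0.07 and 0.54 ± 0.07, all of which passed. Rpl36al was lower, at -0.18 ± 0.07 in KO and -0.28 ± 0.07 in WT, whereas Rpl36a was higher by 0.24 ± 0.09 in KO (adjusted p = 0.034) and at 0.18 ± 0.09 in WT (adjusted p = 0.105). The KO calls of both were lost with neqc, with no filter, and without KO/HT replicate 2, KO/HT replicate 3, KO/KID replicate 1 or KO/KID replicate 2, and that of Rpl36al also without WT/HT replicate 1 or WT/KID replicate 2. Rpl7l1 was lower, at -0.27 ± 0.07 in KO and -0.24 ± 0.07 in WT. Rpl22l1, which in the mouse is known to be repressed by Rpl22, was at 0.17 ± 0.09 in KO and 0.19 ± 0.09 in WT and did not pass. Rpl22 was higher by 0.58 ± 0.17 in KO (adjusted p = 0.00825) and at 0.25 ± 0.17 in WT (adjusted p = 0.207). Rpl26, which in human cells binds the mRNA of p53, was higher in hearts by 0.35 ± 0.11 in KO and by 0.53 ± 0.11 in WT. The KO call of Rpl26 was lost without KO/HT replicate 1 or KO/KID replicate 1. With array medians aligned, the KO calls of Rps4l, Rps4x, Rpl36a, Rpl22 and Rpl26 were lost. Rpl39, on the X chromosome, was higher by 0.60 ± 0.11 in KO and by 0.63 ± 0.11 in WT. The partners Rps27, Rpl7, Rpl10 and Rpl10l are not analysed here, and Rpl39l had no detected probe.

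The acidic stalk proteins, which recruit the elongation factors to the ribosome, differed among themselves. Rplp1 was lower in hearts, at -0.24 ± 0.07 in KO (adjusted p = 0.00823) and -0.28 ± 0.07 in WT (adjusted p = 0.00338). Rplp0, often used as a reference transcript, was higher in KO/HT by 0.23 ± 0.07 (adjusted p = 0.0129) and at 0.05 ± 0.07 in WT/HT (adjusted p = 0.547). Its KO call was lost without KO/KID replicate 2 and in the fit of only the 2 groups. Rplp2 was at 0.17 ± 0.09 in KO and -0.04 ± 0.09 in WT and passed in neither. Rpsa, the small subunit protein also known as the laminin receptor, was above background on 1 of 12 arrays. The same held for the brightest probe of Rps23rg1, and no fold is given for either. A second, dimmer probe of Rps23rg1 rose above background on 6 arrays, the 3 of KO/KID and the 3 of WT/KID. By that probe hearts were lower without overlap, at -0.35 ± 0.05 in KO (adjusted p = 6.06e-05) and -0.33 ± 0.05 in WT (adjusted p = 7.75e-05). Its mean of 6.57 was close to background, so these sizes are uncertain. Rps15a was detected in all 6 hearts but in only 1 array of each kidney group, and was higher in hearts by 0.16 ± 0.06 in KO and 0.31 ± 0.06 in WT. Its KO call was lost in the fit of only the 2 groups and without KO/HT replicate 2, KO/HT replicate 3, KO/KID replicate 2 or KO/KID replicate 3. Rps29, a zinc-binding protein of the small subunit, was at -0.08 ± 0.05 in KO (adjusted p = 0.221) and lower, at -0.29 ± 0.05 in WT (adjusted p = 0.000403). Rps2, at the mRNA entry of the small subunit, was at -0.16 ± 0.09 in KO and -0.05 ± 0.09 in WT. With array medians aligned, the KO calls of Rplp0, Rplp1 and Rps15a and the WT calls of Rplp1 and Rps29 were lost.

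Several genes were read by more than 1 detected probe, and these probes did not always give the same answer. For each gene the brightest of its detected probes was used. Of the 59 members, 17 had several, and in WT hearts against WT kidneys 4 of the 17 (Rpl29, Rpl31, Rpl38 and Rps12) had probes that passed in opposite directions. In KO 1 of the 17, Rpl38, did so. The brightest probe of Rpl38, a large subunit protein needed in the mouse for the translation of Hox mRNAs, read 13.68, 13.84 and 13.99 in KO/HT against 14.36, 14.08 and 14.13 in KO/KID. In wildtype mice it read 13.76, 13.74 and 13.84 in WT/HT against 14.25, 14.42 and 14.16 in WT/KID. By this probe hearts were lower, at -0.35 ± 0.09 in KO (adjusted p = 0.00617) and -0.50 ± 0.09 in WT (adjusted p = 0.000518). The other probe read 9.32, 9.05 and 9.17 in KO/HT against 7.91, 7.93 and 7.98 in KO/KID, and 8.98, 9.06 and 8.98 in WT/HT against a mean of 7.98 ± 0.02 (SD, n = 3) in WT/KID. By that probe hearts were higher without overlap, by 1.24 ± 0.06 in KO (adjusted p = 2.92e-09) and 1.02 ± 0.06 in WT (adjusted p = 1.83e-08). The direction for Rpl38 therefore depends on the probe, and with the mean of its probes it was 0.26 higher in WT/HT (adjusted p = 0.000779). The KO call of its brightest probe was lost with array medians aligned.

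Rpl29, Rpl31 and Rps12 showed the same division in wildtype mice. The probes of Rpl29 gave -0.38 ± 0.07 and 0.90 ± 0.12, those of Rpl31 gave 0.85 ± 0.08, -0.23 ± 0.06 and 0.02 ± 0.07, and those of Rps12 gave -0.25 ± 0.06 and 0.24 ± 0.05, each with the brightest probe named before the others. The WT call of Rps12 was lost with array medians aligned. A second probe of Rps2 was higher in hearts by 0.52 ± 0.07 in KO and 0.90 ± 0.07 in WT, where its brightest probe did not pass. Rps13, among the members with the largest heart excess, had a second probe at -0.10 ± 0.07 in KO (adjusted p = 0.218) and -0.07 ± 0.07 in WT (adjusted p = 0.384) that was detected on 3 arrays. Rpl12, Rpl24, Rps7, Rpl7a, Rps26, Rpl41, Rps27l, Rpl3 and Rpl3l each rested on 1 detected probe. Among the called members with several detected probes, the second brightest probe gave the same call in 3 of 8 in KO and in 3 of 13 in WT. Some second probes were close to background, such as that of Rps19, with a mean of 6.72 and detected on 8 arrays. The same shares were not counted over all genes, so this is not shown to be particular to the members.

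**Figure D3:**
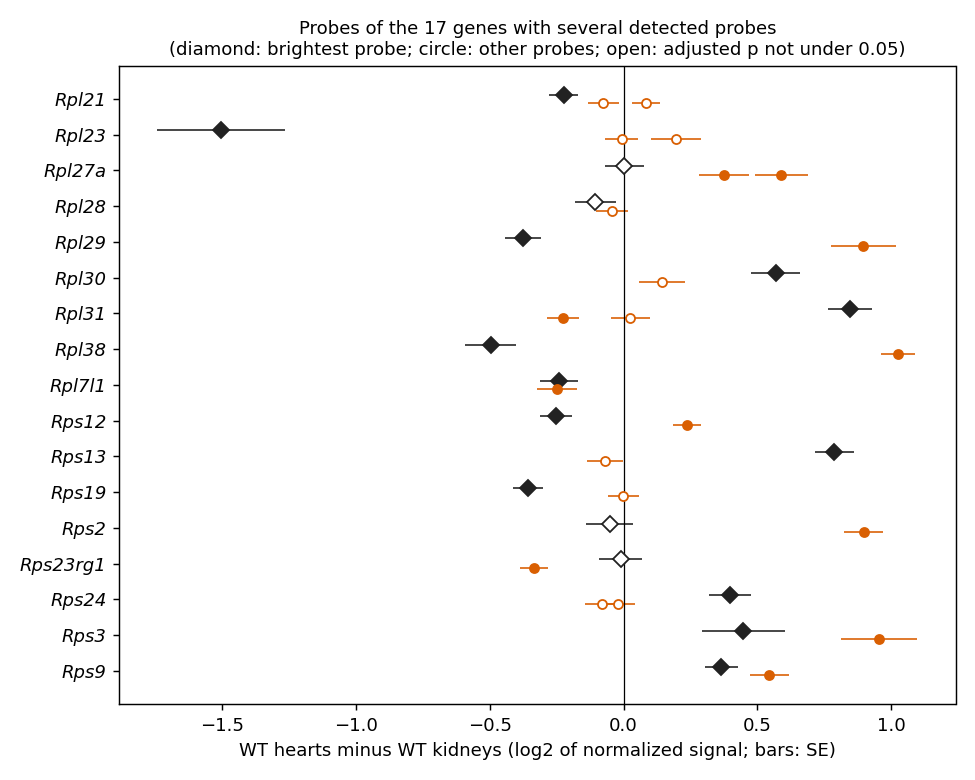
WT hearts minus WT kidneys on the log2 scale for each detected probe of the 17 members that have several, with the SE of the fit, a diamond for the brightest probe and circles for the others (open where the adjusted p was not under 0.05). Rpl38 and Rpl29 have probes that passed on opposite sides of 0, and the brightest probe of Rpl23 lies at -1.50 while its others lie at -0.01 and 0.20.

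The comparison of knockout with wildtype hearts asks what goes with the loss of PAI-1 in the organ in which fibrosis develops. No member passed (0 of 59, beside 0.08% of all genes), and the smallest adjusted p of a member was 0.425. At an unadjusted p under 0.05 the count was 5 of 59, beside 8.34% of all genes. KO/HT and WT/HT arrays did not overlap in 6 members (10.2%, beside 10.4% of all genes). The differences of the members had a median of 0.03 and ran from -0.56 in Rpl7a to 0.35 in Rpl22, and 34 of 59 were above 0. For 52 members the 95% interval lay within 0.5 log2 units of 0, and for 58 within 1 log2 unit, the exception being Rpl7a. KO/HT replicate 1, the only heart with the Y-linked transcript, had the lowest Rpl7a of all hearts, at 9.58. The part of sex in these differences was not tested. Fewer cells of a type and less RNA per cell cannot be told apart in such whole-organ RNA.

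The members with the smallest p-values in hearts were Rps13, Rps15a and Rpl3l. Rps13, given above by array, was 0.23 ± 0.07 higher in KO/HT with groups that did not overlap (adjusted p = 0.425). Rps15a, whose detected levels were close to background, read 6.71, 6.79 and 6.87 in KO/HT against 6.97, 6.89 and 6.96 in WT/HT, a difference of -0.15 ± 0.06 (adjusted p = 0.541). Rpl3l was at -0.33 ± 0.14 (adjusted p = 0.58), where KO/HT replicate 3 was far below the other hearts, and Rpl3 at 0.33 ± 0.14 (adjusted p = 0.586). All 6 cardiomyocyte markers also failed to pass, with differences from -0.22 to 0.05.

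In kidneys, too, no member passed between genotypes (0 of 59, beside 0.32% of all genes). At an unadjusted p under 0.05 there were 10 of 59, beside 10.3% of all genes, and KO/KID and WT/KID did not overlap in 11 members (18.6%, beside 17.3%). The differences had a median of -0.01 and ran from -1.16 in Rpl23 to 0.30 in Rpl7a. For 54 members the 95% interval lay within 0.5 log2 units of 0, and Rpl23 was the member whose interval reached beyond 1. With array medians aligned in place of quantile normalization, 6 members passed as higher in KO/KID and 1 as lower, beside 1407 of all 11244 genes. The median of the members was then 0.135 and that of all genes 0.133.

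Rpl23, a large subunit protein known for binding Mdm2, came nearest to a call. Its brightest probe read 12.85, 13.09 and 13.87 in KO/KID against 13.99, 14.79 and 14.49 in WT/KID. All KO kidneys lay below all WT kidneys, although KO/KID replicate 3 lay within 0.2 log2 units of the lowest of them. The difference was -1.16 ± 0.24, a 2.23-fold lower signal in KO/KID, with limma adjusted p = 0.0594. The other probes of Rpl23 did not show it. One read 13.25, 13.20 and 13.23 in KO/KID against 13.33, 13.42 and 13.23 in WT/KID, a difference of -0.10 ± 0.06 (adjusted p = 0.663). The third read 8.46, 8.85 and 8.62 in KO/KID against 8.30, 8.30 and 8.46 in WT/KID, a difference of 0.29 ± 0.09 (adjusted p = 0.271). In hearts the brightest probe read 12.98, 12.87 and 13.22 in KO/HT against 12.79, 12.92 and 13.05 in WT/HT. The probe was thus high in wildtype kidneys and at similar levels in the other 3 groups, and it gave -0.24 ± 0.24 for KO/HT against KO/KID (adjusted p = 0.391) and -1.50 ± 0.24 for WT/HT against WT/KID (adjusted p = 0.000112). Without KO/KID replicate 3 the kidney difference passed (-1.45, adjusted p = 0.00907), as it did without WT/KID replicate 1 (-1.37, adjusted p = 0.0353), with neqc background correction (adjusted p = 0.0418) and with array medians aligned (-0.92, adjusted p = 0.018). With array medians aligned, 1407 of all 11244 genes passed in this comparison.

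Rpl29 and Rpl21, both of the large subunit, followed with the next smallest p-values in kidneys. Rpl29 read 11.22, 11.19 and 11.39 in KO/KID against 11.51, 11.51 and 11.44 in WT/KID, a difference of -0.22 ± 0.07 (adjusted p = 0.222). Rpl21 read 7.27, 7.25 and 7.22 in KO/KID against 7.46, 7.46 and 7.34 in WT/KID, a difference of -0.17 ± 0.05 (adjusted p = 0.246). In both the KO kidneys lay below the WT kidneys without overlap, but the second probe of Rpl29 gave 0.28 ± 0.12 (adjusted p = 0.44).

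Whether the difference between genotypes was the same in both organs was asked with the interaction of genotype and organ, the KO minus WT difference of hearts less that of kidneys. No member passed (0 of 59, beside 0.0445% of all genes), and 9 of 59 had an unadjusted p under 0.05, beside 9.01% of all genes. The smallest p-values were those of Rpl23 at 1.26 ± 0.34 (adjusted p = 0.277), Rpl29 at 0.31 ± 0.09 (adjusted p = 0.342) and Rps6 at -0.32 ± 0.11 (adjusted p = 0.446). Rps6, the small subunit protein that the S6 kinases phosphorylate, read 10.74, 10.81 and 10.55 in KO/HT against 10.76, 10.86 and 10.89 in WT/HT. In kidneys Rps6 read 11.01, 11.13 and 10.94 in KO/KID against 10.77, 10.79 and 10.97 in WT/KID. The groups overlapped in both organs.

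**Figure D4:**
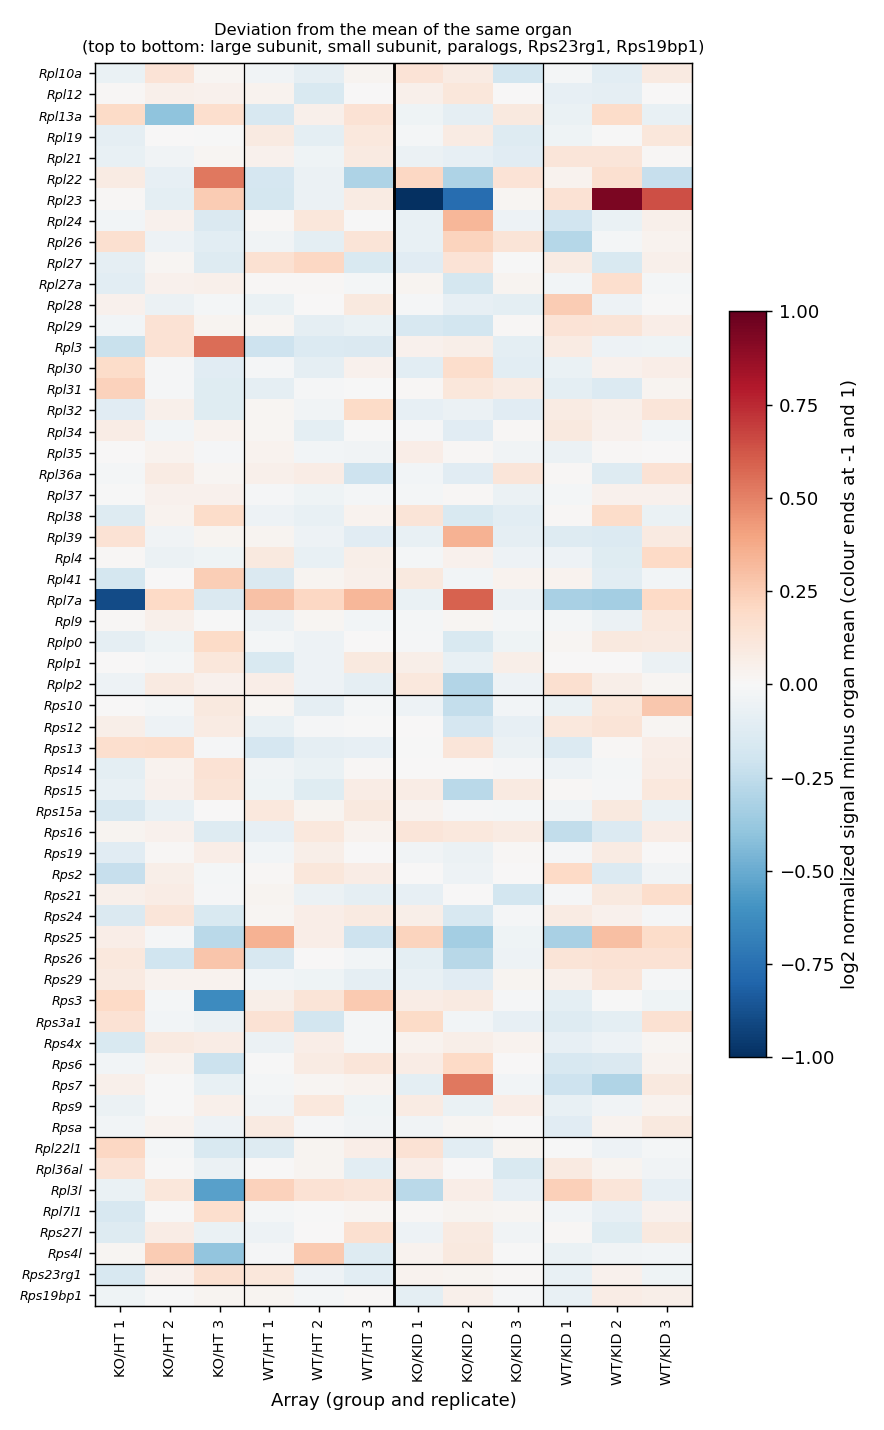
Deviation of each of the 59 members (rows, by subunit and class) from its mean over the 6 arrays of the same organ, on the log2 scale, for 12 arrays (columns, KO left of WT in each organ). The colours do not follow genotype over the rows as a whole. Single arrays stand apart in single genes, among them KO/HT replicate 1 in Rpl7a, KO/HT replicate 3 in Rpl3, Rpl22, Rps3 and Rpl3l, and KO/KID replicate 2 in Rpl7a and Rps7.

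Within the genotypes, single arrays departed from the rest of their organ in few members. An array was counted where it lay more than 0.25 log2 units above or below all other arrays of its organ. KO/HT replicate 3 did so in 5 members (8.47%, beside 6.95% of all genes), above the others in Rpl22 and Rpl3 and below them in Rpl3l, Rps3 and Rps4l. KO/KID replicate 2 also did so in 5 members (8.47%, beside 2.61% of all genes), above in Rpl24, Rpl39, Rpl7a and Rps7 and below in Rps15. The 4 members above were among those called higher in KO/HT than in KO/KID, and so was Rps15, which lay below. The cardiomyocyte markers of KO/KID replicate 2 averaged 6.50 against 6.47 to 6.49 in the other kidneys and were detected in no kidney. What set this array apart was not tested. Without KO/KID replicate 2, 30 of the 38 calls between KO/HT and KO/KID remained.

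The rest of the translation machinery was read through 3 lists. Of 16 measured genes for elongation factors and other TOP mRNAs, 11 were higher and 4 lower in KO/HT than in KO/KID (beside 35.4% and 33% of all genes), and 11 were higher and 2 lower in WT/HT than in WT/KID (beside 36.1% and 33.9%), with medians of 0.35 and 0.47 against 0.02 and 0.01 for all genes. Eef1a1 and Eef1a2, the 2 forms of the factor that delivers aminoacyl-tRNA, went in opposite directions. Eef1a2, the form of muscle and neurons, averaged 13.58 in KO/HT and 13.55 in WT/HT and was detected in no kidney, at least 122.3-fold and 117.7-fold higher. These bounds set each kidney array at the lowest signal among its detected probes. Eef1a1 read 12.87, 12.76 and 12.98 in KO/HT against 14.23, 14.24 and 14.26 in KO/KID, a difference of -1.37 ± 0.06 (adjusted p = 8.65e-10), and was lower, at -1.39 ± 0.06 in WT/HT (adjusted p = 7.33e-10). Eef2, the translocation factor, was higher in hearts by 0.91 ± 0.15 in KO and by 1.10 ± 0.15 in WT.

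Of 20 measured genes for ribosome biogenesis, 12 were higher and 5 lower in KO/HT and 11 higher and 4 lower in WT/HT, with medians of 0.24 in both and the same shares of all genes beside them. Of 11 genes that regulate the translation of TOP mRNAs, 5 were higher and 1 lower in each genotype, again beside 35.4% and 33% of all genes in KO and 36.1% and 33.9% in WT. Eif4ebp1, which restrains the cap-binding factor, was higher in hearts by 2.15 ± 0.11 in KO and 1.97 ± 0.11 in WT, and Mtor, the kinase above it, was lower, at -1.20 ± 0.09 in KO and -1.01 ± 0.09 in WT. Larp1 did not pass in either. Between genotypes, 1 gene of the 3 lists (16, 20 and 11 measured genes) passed, in kidneys, beside 0.32% of all genes there. None passed in hearts, beside 0.08% of all genes. Polr1d, a subunit shared by RNA polymerases I and III, read 10.35, 10.45 and 10.46 in KO/KID against 11.19, 11.05 and 10.90 in WT/KID, a difference of -0.63 ± 0.07 (adjusted p = 0.00154). In hearts it read 10.94, 10.85 and 10.95 in KO/HT against 11.24, 11.20 and 11.31 in WT/HT, a difference of -0.34 ± 0.07 that did not pass (adjusted p = 0.159). In both organs all knockout arrays lay below all wildtype arrays. The interaction for Polr1d was 0.29 ± 0.10 (adjusted p = 0.428), so a difference between the organs was not shown.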

How the data were processed

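The authors deposited a summary signal, an intensity for each of 45281 bead array probes on 12 arrays, linear and not normalized between arrays, and beside it the authors gave a detection p-value for each signal. The sources do not say how that p-value was made. Another file holds the authors' normalized values, which the methods credit to lumi and quantile normalization. The sources do not give the version of lumi.

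Signals were quantile normalized over the 12 arrays and taken to log2 with no pseudocount, since the lowest was 71.7, and a probe was kept if its detection p-value fell under 0.01 on 1 or more arrays (19780 probes). Symbols came from the platform annotation, updated through Entrez identifiers to RefSeq genes of GRCm38.p6, and 17073 kept probes had 1 symbol, 9 several and 2698 none. A gene took its brightest kept probe. The step size of 0.25 for arrays standing apart was a choice. Signals of different probes were not compared, and no count of molecules underlies an intensity, so precision rests on 3 arrays per group. The series' design text gives 3 mice per genotype, which the sex-linked transcripts go against in both genotypes. The sample labels name no animal, so p-values measure the spread between these arrays.

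One limma model with a mean per group (8 residual and 3.91 prior degrees of freedom) gave all comparisons, two-sided, with Benjamini-Hochberg adjustment over all kept probes. R 4.3.3, limma 3.58.1, Python and matplotlib were used. The fit was checked on simulated data. Promoter sequences are RefSeq's.

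The members and lists were chosen with earlier results of these data known. Genes named are the paralog pairs, the acidic stalk proteins, Rpsa, Rpl23, the 3 brightest and 3 dimmest members, the 5 largest called differences of each sign in each comparison between organs, and the 3 smallest p-values elsewhere. Other members and list genes were named after their values were seen. Alternatives were neqc with an offset of 16, aligned medians without quantile normalization, quantile normalization within each organ, the authors' normalized values, 3 other detection filters, only the groups compared, a replicate block, a random block for the mouse, trended robust moderation, the mean of a gene's probes and leaving out each array. The second brightest probe and the leaving out of 2 pairs of arrays were added after the data were seen.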

Additional observations from a re-analysis of the deposited data

How the results depend on the processing

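The calls of the organ comparisons depended most on the scaling. With array medians aligned and no quantile normalization, the members called higher numbered 7 in KO/HT against KO/KID and 14 in WT/HT against WT/KID. Of all 11244 genes, 7857 and 7507 were called, higher or lower. Of the 38 KO calls 16 and of the 40 WT calls 27 then held their direction and passed, and in KO 12 members turned sign. The 1 WT call that passed in the opposite direction was that of Rpl4. The members' median became 0.0603 in KO/HT minus WT/HT, 0.135 in KO/KID minus WT/KID, -0.0428 in WT/HT minus WT/KID, -0.0873 in KO/HT minus KO/KID and -0.0869 in the interaction, while that of all genes became 0.0361, 0.133, -0.12, -0.203 and -0.0894 in the same order. In KO/KID against WT/KID 7 members passed with that scaling, 1 with neqc, and 1 with the replicate number as a block (replicate block). Of all 11244 genes, 1407, 34 and 23 passed, in the same order. The cause was not tested. In the neqc and block fits the member was Rpl23 (adjusted p = 0.0418 and 0.0298).

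The members' median in WT/HT minus WT/KID was 0.0881 with neqc, 0.192 with the mean of a gene's probes and 0.144 with the second brightest probe. In KO/HT minus KO/KID it was 0.09995 with the authors' normalized values, 0.0803 with no filter (which tests more probes), 0.184 with the mean of probes and 0.111 without KO/KID replicate 2 and KO/HT replicate 3, and in the interaction it was 0.0296 without KO/HT replicates 1 and 3. Leaving out 1 array at a time gave 0 to 1 members called in KO/KID against WT/KID, medians of 0.115 to 0.171 in KO/HT minus KO/KID and of -0.0177 to 0.0453 in the interaction. Rpl38 in WT/HT minus WT/KID turned to 0.264 with the mean of probes and 1.02 with the second probe, and Rps13 in KO/HT minus KO/KID to -0.0994 with the second probe. For the counts and medians, 290 of 314 alternative values stayed near the main value. For a median this meant a shift under 0.0227 log2 units, the SD between replicates of the members' median. For single members 921 of 941 alternative values kept the call, and size was not part of that rule. Many alternatives left out an array outside the comparison, which cannot change the difference, so these tallies do not measure robustness. Same-numbered hearts and kidneys or genotypes deviated together at r = -0.203 to 0.207, above 0.1 in 4 of 18 pairs, so the numbers do not pair the arrays. No count of molecules sets the precision here, and 3 arrays per group limit it.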
